A study of Mus musculus with 8 samples.

Results

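The genes described here are 9 genes used as markers of interneurons born in the medial ganglionic eminence (MGE), a ventral zone of the embryonic forebrain. They were followed in cortex RNA of mouse embryos. They are the transcription factor genes Nkx2-1, Lhx6, Lhx8, Sox6, Satb1, Maf and Npas1 and the neuropeptide genes Sst and Npy. Probe sets were taken where the platform annotation gave exactly 1 gene symbol and that symbol was one of these. All 9 genes were found, each read by 1 probe set, among 19938 genes in all. The genes were selected on results from these same arrays, among them their VEGF minus control difference, so that difference is given as a description, without a test of its own.

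Total RNA of brain cortex at embryonic day 16 was hybridised to 8 whole-transcript Affymetrix arrays. The 4 control arrays carry the label wild type, and a protocol note adds that they lack TetO-VEGF-A164, which leaves it unsaid whether a control embryo could carry the driver alone. The 4 arrays of the VEGF group come from bitransgenic embryos with GFAP-tTA and TetO-VEGF-A164, in which the Gfap promoter drives a transactivator that tetracycline silences, and this in turn switches on a transgene for VEGF-A, the main growth factor for blood vessels. The transgene is thus driven where that promoter is active, and the sources used here do not give the doxycycline regimen behind the label "induced". The strain background of both groups is given as mixed. The comparison asks how the embryonic cortex differs when VEGF-A is overexpressed, but effects of VEGF-A, of the driver, of the insertions and of the mixed background cannot be told apart. The labels do not say whether the 4 arrays of a group came from separate litters, so the errors measure the spread between these arrays.

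Cortical interneurons are not born in the cortex. Most come from ventral eminences, of which the MGE gives rise to the somatostatin and parvalbumin classes and the caudal ganglionic eminence (CGE) to much of the remainder, and they reach the cortex by long tangential migration. In MGE progenitors Nkx2-1 switches on Lhx6 and Lhx8. Lhx6 stays on in interneurons on their way to the cortex and acts upstream of Sox6 and Satb1, whereas most of these cells turn Nkx2-1 off, and Lhx8 is kept mainly by cholinergic and other ventral neurons.

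The upstream sequences of Lhx6 and Sst are shown because these genes had the largest differences of the 9. They are taken from the RefSeq promoter table for build GRCm38.p6, and each is the 250 bases before an annotated start, 5′ to 3′ on the gene's strand, with motif matches in capitals. The Lhx6 stretch lies at chr2:36104061-36104310 on the minus strand, before the most downstream of 3 annotated starts, and is the one with matches. The Sst stretch lies at chr16:23890845-23891094 on the minus strand, and the RefSeq gene record reaches farther upstream than this start.
Lhx6: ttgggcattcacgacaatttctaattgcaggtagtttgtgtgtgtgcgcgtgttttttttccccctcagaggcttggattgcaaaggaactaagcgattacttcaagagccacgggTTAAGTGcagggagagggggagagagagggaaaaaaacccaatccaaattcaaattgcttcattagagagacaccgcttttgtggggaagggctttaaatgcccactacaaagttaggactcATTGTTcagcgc
Sst: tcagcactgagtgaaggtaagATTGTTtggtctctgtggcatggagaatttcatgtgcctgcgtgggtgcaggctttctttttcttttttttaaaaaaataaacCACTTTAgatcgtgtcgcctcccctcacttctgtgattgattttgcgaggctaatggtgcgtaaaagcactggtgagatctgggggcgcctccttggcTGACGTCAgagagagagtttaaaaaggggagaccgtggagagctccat

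In Lhx6 the capitals mark TTAAGTG, a match to TNAAGTG, the letters bound by NK2-class homeodomain factors such as Nkx2-1, and ATTGTT, the Sox motif AACAAT on the other strand. In Sst they mark ATTGTT again, then CACTTTA, which reads TNAAGTG on the other strand, and the motif TGACGTCA, the cAMP response element through which this promoter is known to respond to CREB. The search covered both strands of windows of 300 bases, 250 before and 50 after a start, and no matches overlapped in the stretches shown. Of 32817 such windows, 1.79% held TGACGTCA, 11.5% TNAAGTG, 10.7% AACAAT, 5.3% the homeodomain core TAATTA and 4.67% the Maf letters TGCTGAC. The table held 19 windows for 8 of the 9 genes. TGACGTCA was found in 1 of them (Sst), TNAAGTG in 5 (Lhx6, Sst and 3 of the 6 Sox6 windows) and AACAAT in 4 (Lhx6, Sst, Nkx2-1 and Sox6), while the homeodomain and Maf letters were found in none. A match says only that the letters are there.

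The deposited values are logarithms, taken to be of base 2, and were centred probe set by probe set on the median of the 8 arrays. A value is therefore a distance from that median, no level is kept, and whether these genes or the markers of cortex are present at a high or low level cannot be checked. Vegfa differed by 0.05 (SE 0.051) and so does not check the labels; the arrays labelled VEGF are called VEGF 1 to VEGF 4. Xist gave a female pattern in control 3, VEGF 2 and VEGF 3, of which control 3 and VEGF 3 were often the low arrays of their group in the values given next. With limma, 0 of 19938 genes (0%) passed an adjusted p of 0.05, none of the 9 among them. An unadjusted p under 0.05 was reached by 2484 genes (12.5%), and the methods' t-test gave 2114 unadjusted and 0 after adjustment.

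All 9 genes had a lower mean in the VEGF-labelled arrays, where 56.7% of all genes did and 43.3% had a higher one. Their median difference was -0.53 on the log2 scale, against -0.010 over all genes, and 5 of them (Sst, Lhx6, Lhx8, Nkx2-1 and Npy) lay below -0.5, as 0.236% of all genes did. Ordered by difference over the 19938 genes, Sst came 2nd and Lhx6 the third from the lowest, Lhx8 was at place 16, Nkx2-1 at 29 and Npy at 34, while Npas1 was at 931 and Sox6 at 5497. The groups did not overlap in 3 of the 9 genes, Lhx6, Lhx8 and Satb1, with VEGF below control, against 4.71% of all genes in that direction. Since the genes were chosen for this contrast, nothing is read from these shares. In bulk tissue, fewer cells of a type and less RNA per cell cannot be told apart.

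**Figure D1:**
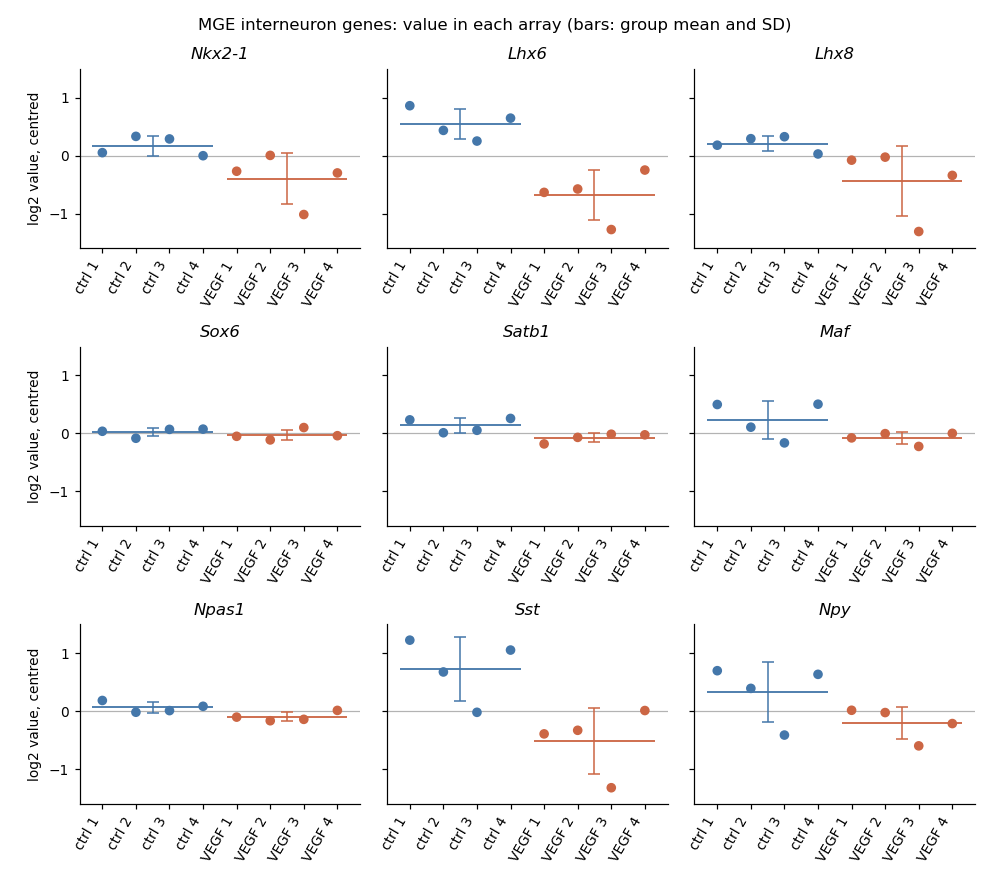
Value of each of the 9 genes in each array (log2, centred per probe set; blue control, orange VEGF; horizontal bars are group means and error bars SD, n = 4). Lhx6 keeps a gap of 0.50 between the groups, Sox6 shows none, and VEGF 3 is the lowest array for 6 of the 9 genes.

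Nkx2-1 stands at the head of the pathway, as the factor that gives MGE progenitors their identity. Its control values were 0.050, 0.33, 0.29 and -0.0028, and its VEGF values were -0.27, 0.0028, -1.02 and -0.30, in replicate order. The groups met at VEGF 2 and control 4, and VEGF 3 lay far below every other array. The means were 0.17 ± 0.17 and -0.40 ± 0.44 (SD, n = 4 each), and the difference was -0.56 (SE 0.191.) Without VEGF 3 it was -0.36.

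Lhx6, the LIM homeodomain factor needed for the migration and maturation of MGE interneurons, separated the groups most cleanly. It read 0.86, 0.43, 0.25 and 0.65 in control 1 to 4 and -0.64, -0.58, -1.28 and -0.25 in VEGF 1 to 4. Every VEGF array lay below every control array, with 0.50 between the nearest arrays, control 3 and VEGF 4. The means were 0.55 ± 0.26 and -0.68 ± 0.43 (SD, n = 4 each), and the difference was -1.23 (SE 0.206), which is 0.426-fold if the base is 2. Leaving out any 1 array kept the difference between -1.38 and -1.03.

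Lhx8, the sister gene that directs cholinergic fate in ventral neurons, read 0.18, 0.29, 0.32 and 0.027 in control 1 to 4 and -0.079, -0.027, -1.31 and -0.34 in VEGF 1 to 4. Its groups did not overlap either, but the gap was only 0.054, from control 4 to VEGF 2, and VEGF 3 carried much of the difference. The means were 0.21 ± 0.13 and -0.44 ± 0.60 (SD, n = 4 each), and the difference was -0.65 (SE 0.25.) Without VEGF 3 it was -0.35, more than 1.5 times smaller.

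Sox6 and Satb1 act downstream of Lhx6 in the maturation of MGE interneurons, and both are also expressed outside them, Sox6 in dorsal progenitors and Satb1 in cortical projection neurons. Sox6 read 0.038, -0.082, 0.071 and 0.075 in control 1 to 4 and -0.049, -0.11, 0.10 and -0.038 in VEGF 1 to 4. The groups lay over each other, and VEGF 3, the lowest array for most of the other genes, was the highest for this one. Its difference of -0.050 was smaller than its SE of 0.055, and it was -0.021 without VEGF 2 and -0.092 without VEGF 3.

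Satb1, a chromatin organiser that promotes the somatostatin fate, read 0.23, 0.013, 0.055 and 0.26 in control 1 to 4 and -0.18, -0.067, -0.013 and -0.023 in VEGF 1 to 4. Every VEGF array lay below every control array, though only 0.025 separated control 2 from VEGF 3. The difference was -0.21 (SE 0.066), and here VEGF 1 and not VEGF 3 was lowest.

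Maf, a bZIP factor that favours somatostatin over parvalbumin interneurons, read 0.50, 0.11, -0.16 and 0.51 in control 1 to 4 and -0.076, -0.0027, -0.22 and 0.0027 in VEGF 1 to 4. Control 1 and control 4 lay well above all other arrays, whereas control 3 lay below 3 of the VEGF arrays. The difference was -0.31 (SE 0.141.) It was -0.45 without control 3 and -0.22 without control 4.

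Npas1, a bHLH-PAS repressor found in several forebrain interneuron types, read 0.19, -0.014, 0.014 and 0.088 in control 1 to 4 and -0.098, -0.16, -0.14 and 0.018 in VEGF 1 to 4. VEGF 4 lay among the control arrays and the other VEGF arrays below them. The difference was -0.16 (SE 0.056.)

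Sst encodes somatostatin, the peptide that gives a main class of MGE interneurons its name. It read 1.23, 0.68, -0.015 and 1.06 in control 1 to 4 and -0.39, -0.33, -1.32 and 0.015 in VEGF 1 to 4. The spread was wide in both groups, and control 3 and VEGF 4 met near 0. The means were 0.74 ± 0.55 and -0.50 ± 0.57 (SD, n = 4 each), and the difference was -1.24 (SE 0.323), which is 0.423-fold if the base is 2. The difference was -0.97 without VEGF 3 and -1.49 without control 3.

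Npy encodes neuropeptide Y, carried by a share of the somatostatin cells and by other interneurons. It read 0.70, 0.40, -0.41 and 0.64 in control 1 to 4 and 0.020, -0.020, -0.59 and -0.21 in VEGF 1 to 4. Control 3 lay below all VEGF arrays but VEGF 3, so that the low arrays of both groups were among those with a female pattern. The difference was -0.53 (SE 0.238), and -0.78 without control 3.

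**Figure D2:**
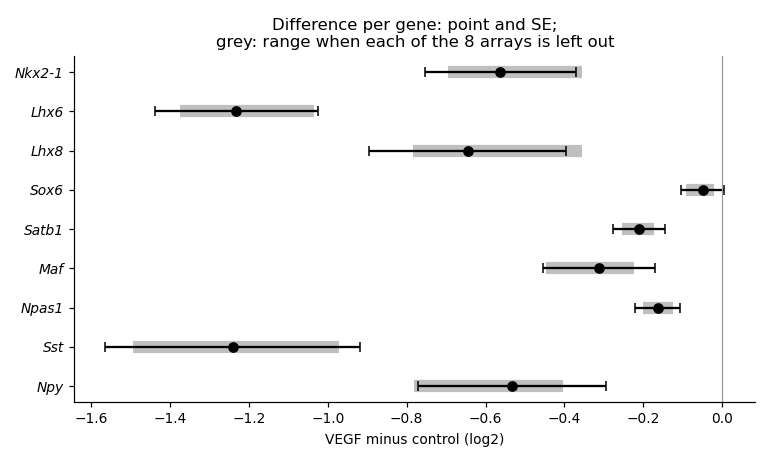
Difference of each gene, VEGF minus control (log2), as a point with its SE from limma; the grey band spans the values obtained when each of the 8 arrays is left out in turn. The bands of Lhx6 (-1.38 to -1.03) and Sst (-1.49 to -0.97) lie farthest from 0, and that of Sox6 (-0.092 to -0.021) closest to it.

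Over the 9 genes together, the mean was 0.44, 0.24, 0.046 and 0.37 in control 1 to 4 and -0.20, -0.14, -0.64 and -0.13 in VEGF 1 to 4. Control 3 was the lowest control array and VEGF 3 the lowest of all, and both had the female pattern, as had VEGF 2. Whether sex has a part in these values was not tested, but the difference within the arrays without a female pattern was measured. These were control 1, control 2, control 4, VEGF 1 and VEGF 4, so the VEGF mean rests on VEGF 1 and VEGF 4 alone. In those 5 arrays all 9 genes were again lower, with a median of -0.41, -1.09 for Lhx6 and -1.17 for Sst. In them 7 of the 9 did not overlap, all but Npas1 and Sox6, as did 14.0% of all genes with VEGF below, since fewer arrays overlap less often. The count was 6 without control 3, with 8.59% of all genes, and 5 without VEGF 4, with 8.58%. Without VEGF 3 it was 3, with 5.87% of all genes, and the median was -0.35, about 1.5 times smaller than over all arrays.

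The genes did not vary as 1 block from array to array. After the group means were removed, likeness was measured as Pearson's r over the 8 arrays, as a description only, since the points share groups and arrays. Lhx6 and Sst went together (r = 0.96), as did Maf and Npy (r = 0.90), and Nkx2-1 and Lhx8 formed a pair of their own (r = 0.96). Over the 36 pairs the median r was 0.37 and 25 pairs were above 0, while the mean was 0.27 against 0.024 over all pairs of genes. Sox6 ran against Nkx2-1 (r = -0.86) and Lhx8 (r = -0.79).

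The sign of the likeness between Lhx6 and the pair Nkx2-1 and Lhx8 depended on VEGF 3. With that array Lhx6 had r = 0.50 with Nkx2-1 and 0.59 with Lhx8, and without it -0.68 and -0.76. Lhx6 with Sst was 0.93 and Nkx2-1 with Lhx8 was 0.81 without it. When VEGF 3 was left out, Satb1 with Lhx6 went from 0.28 to 0.81. Sox6 went from -0.86 to -0.68 with Nkx2-1, from -0.79 to -0.49 with Lhx8 and from -0.48 to 0.21 with Lhx6. In the control group Lhx6, Sst, Maf and Npy were highest in control 1 and control 4, whereas Nkx2-1 and Lhx8 were highest in control 2 and control 3.

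**Figure D3:**
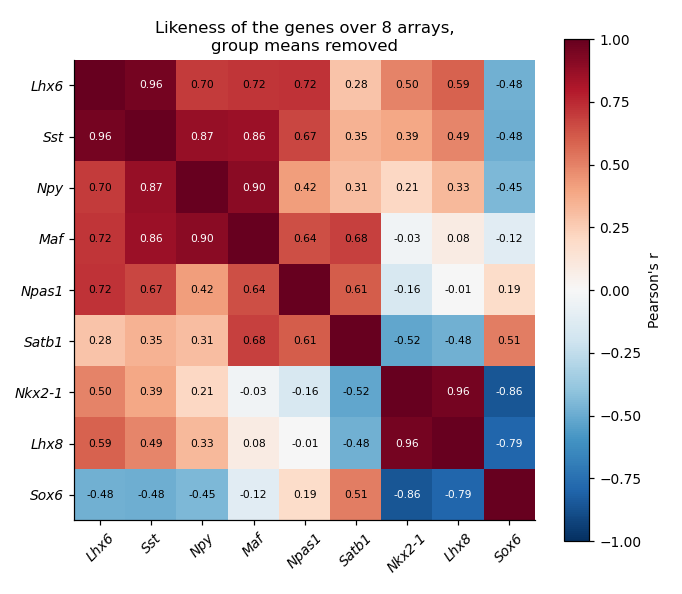
Pearson's r between each pair of the 9 genes over 8 arrays after the mean of each group was removed. Lhx6, Sst, Npy, Maf and Npas1 form 1 block, Nkx2-1 and Lhx8 another (r = 0.96), and Sox6 runs against the second. Satb1 goes with Maf (r = 0.68) and Npas1 (r = 0.61) but less with Lhx6 (r = 0.28).

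Outside the 9 genes, the 5 most like Lhx6 by this measure over the 8 arrays were Arhgap32 (r = 0.996), Rorb (r = 0.989), Trim13 (r = 0.988), Penk (r = 0.982) and Vhl (r = 0.981). Rorb is a transcription factor of layer 4 neurons, Penk encodes the enkephalin precursor and Vhl the ubiquitin ligase subunit that marks hypoxia-inducible factors for degradation. Their differences between the groups were -0.23, -0.44, -0.20, -0.52 and -0.074 in that order. With 8 arrays and 19938 genes, values this high are the extreme of a very long list.

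Other genes of MGE interneurons, from a list chosen with the earlier results known, had a median below 0. Of the 17 genes described here 15 were lower and 2 higher, none passed in limma in either direction, and the median was -0.17, or -0.11 without control 1. The difference between this list and the 9 genes, which were chosen for their difference, was not tested. The lowest was Tac1, which encodes the tachykinin substance P precursor, at -0.53, with -1.63 in VEGF 3 and between -0.22 and 0.33 in the other VEGF arrays. Nos1 followed at -0.52 with an SE of 0.135. It read -0.53, -0.48, -0.44 and 0.037 in VEGF 1 to 4, and its groups overlapped through VEGF 4. The neuregulin receptor Erbb4 differed by -0.50 with an SE of 0.330, and its values were -1.03 in VEGF 3 and -0.91 in VEGF 4 against 0.054 and 0.24 in VEGF 1 and VEGF 2. Elfn1, a synaptic organiser of somatostatin interneurons, was the only 1 of the 17 whose groups did not overlap, at -0.26 with an SE of 0.085, a share close to the 4.71% of all genes. St18, at 0.072, was the highest.

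The list of ventral progenitor and Sonic hedgehog genes, which mixes the ligand with targets of the pathway, had a median closer to 0. It leaves out Nkx2-1, which is counted among the 9 genes and differed by -0.56. In this list 8 of 11 genes were lower and 3 higher, none passed, and the median was -0.070. That value depended on single arrays, with -0.015 without control 2, -0.021 without VEGF 3, -0.11 without VEGF 2 and -0.14 without VEGF 1. Shh, the ligand that induces Nkx2-1, differed by -0.091, its receptor and target Ptch1 by 0.047 and the target Gli1 by 0.19, the last without overlap on the higher side, as in 2.13% of all genes. Olig2, a bHLH factor of ventral progenitors, was lowest at -0.24 and the homeobox gene Otx2 highest at 0.40. The shift of these genes against that of the 9 was not tested.

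The pan-GABAergic list, which beside genes for GABA synthesis and transport holds Dlx genes of forebrain GABAergic lineages, lay lower with the MGE genes. All 7 measured of 8 listed were lower, with a median of -0.48 and from -0.62 for the homeobox gene Dlx2 to -0.34 for the vesicular GABA transporter Slc32a1, and none passed. In 6 of them, all but Gad1, the groups did not overlap, as in 4.71% of all genes with VEGF below. The gap between the groups was widest for Dlx1, at 0.30, but only 0.010 for both Dlx6 and Gad2. Without VEGF 3 all 7 were still lower, and the median was -0.27. The GABA-synthesising enzymes Gad1 and Gad2 differed by -0.36 and -0.48, with -0.83 and -1.05 in VEGF 3.

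CGE interneuron genes were split. Of 14 genes 8 were lower and 6 higher, none passed, and the median was -0.028, with -0.042 to 0.076 for the list mean in control arrays and -0.090 to 0.083 in VEGF arrays. Without control 3 the genes split 7 to 7, with a median of -0.0055. Nr2f2, a nuclear receptor of the CGE, differed by 0.029, the homeobox factor Prox1 by 0.28, the serotonin receptor subunit Htr3a by -0.19 and the other nuclear receptor Nr2f1 by 0.096, the last 2 without overlap. That is 1 gene of 14 on each side, beside 4.71% of all genes with VEGF below and 2.13% with VEGF above. For Htr3a the gap between the groups was only 0.00079. Adarb2 was lowest at -0.36 and Calb2, the calretinin gene, highest at 0.36. Prox1 and Calb2 are also thalamic genes, and Prox1 was at 0.69 and 0.62 in VEGF 1 and VEGF 2. That MGE genes were lower and CGE genes split is a comparison of medians, and the difference between the lists was not tested.

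In a list of ligands and receptors that guide migrating interneurons, with the vascular receptors Kdr and Flt1 added, 17 of 19 genes were lower. The median was small, at -0.063, and none passed. The vascular receptors themselves hardly differed, Kdr by -0.016 (SE 0.108) and Flt1 by 0.020 (SE 0.044). The chemokine Cxcl12, which holds interneurons in their migratory streams, was lowest at -0.30, with -0.77 in VEGF 3 and 0.15 in VEGF 4. Its receptors Cxcr4 and Ackr3 differed by -0.096 and -0.25. The repellent Slit1 was the only gene of this list whose groups did not overlap, at -0.22, 1 of 19 beside 4.71% of all genes, and the GDNF receptor Gfra1 was highest at 0.13.

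**Figure D4:**
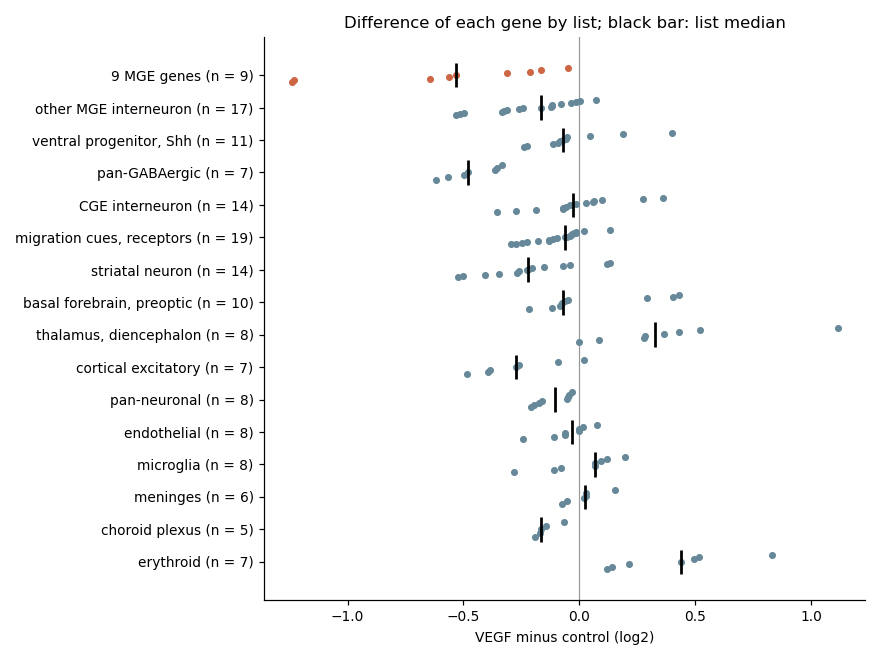
Difference of every measured gene, VEGF minus control (log2), by list; each point is a gene and the black bar the list median. The 9 MGE genes (median -0.53) and the pan-GABAergic genes (-0.48) lie lowest, the CGE genes around 0 and the thalamic and erythroid genes above it.

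Markers of neighbouring tissue and other cells also differed between the groups, and their part in the lower MGE values was not tested. Striatal neuron genes were lower in 12 of 14, with a median of -0.22, from Penk at -0.52 to Foxp2 at 0.13. Their list mean was -0.013 to 0.22 in control and -0.40 to 0.020 in VEGF arrays, lowest in VEGF 3. Ebf1, Ikzf1 and Zfp503, named after their values were seen, were the 3 striatal genes whose groups did not overlap with VEGF below, beside 4.71% of all genes. Their gaps were small, at 0.0044, 0.0026 and 0.035 in that order. Basal forebrain and preoptic genes, which cover the ventral tissue where Lhx8 stays on, were lower in 7 of 10, with a median of -0.069, from Isl1 at -0.22 to Gbx2 at 0.43. Isl1 is also counted in the striatal list and Gbx2 in the thalamic list. Gbx2 read 0.67, 0.72, 0.13 and -0.24 in VEGF 1 to 4. The other higher genes of this list were Zic1 at 0.29 and Dbx1 at 0.40. Zic1 read 0.43, 0.41, -0.029 and -0.32 in VEGF 1 to 4, and Dbx1 read 0.69, 1.02, -0.022 and -0.12. The list mean of the basal forebrain and preoptic genes was -0.12 to 0.21 in control and -0.11 to 0.20 in VEGF arrays. Without control 2 their median was -0.013.

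Thalamic and diencephalic genes were higher in 7 of 8, with a median of 0.32, from Otp at -0.0026 to Tcf7l2 at 1.11. VEGF 1, VEGF 2 and control 2 had the highest list means, 0.58, 0.54 and 0.24, while VEGF 4 was at -0.20. Cortical excitatory neuron genes were lower in 6 of 7, with a median of -0.27, from Bcl11b at -0.48 to Emx1 at 0.021. The mean of these genes was -0.39 and -0.48 in VEGF 1 and VEGF 2, and -0.048 in VEGF 3, the array where the MGE genes were lowest. Without VEGF 2 the median of this list was -0.17.

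**Figure D5:**
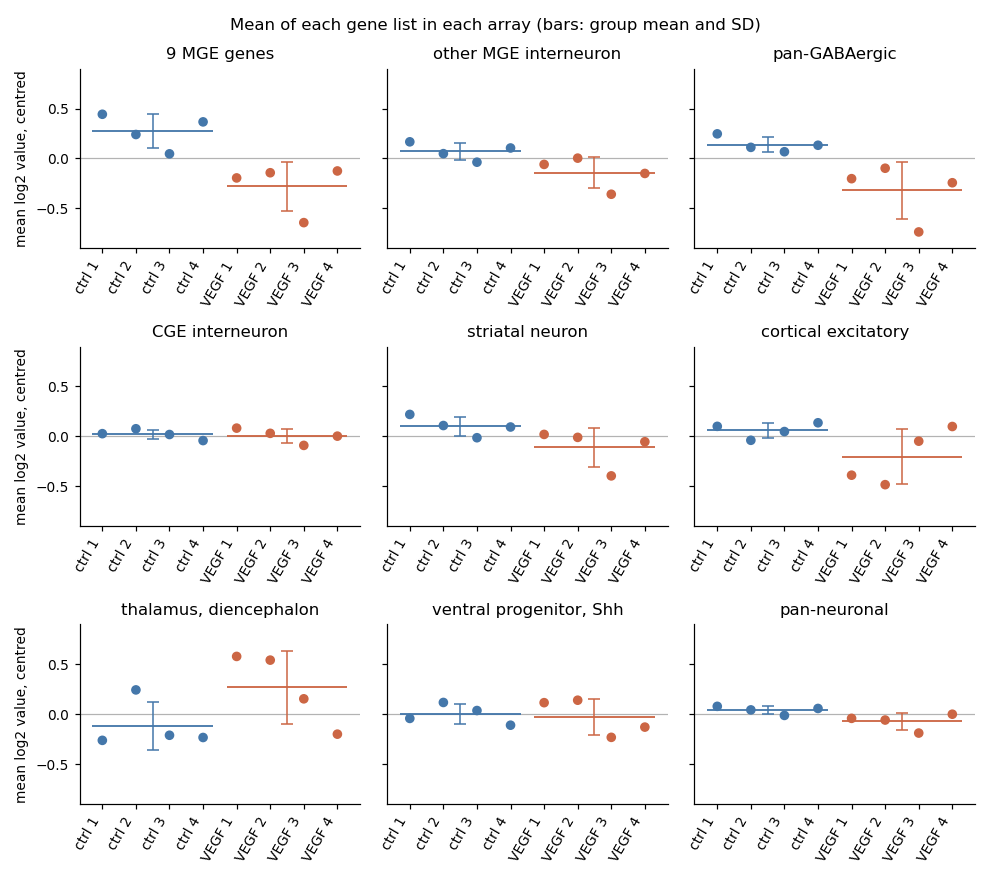
Mean of each of 9 gene lists in each array (log2, centred; blue control, orange VEGF; bars are group means and SD, n = 4). The MGE and pan-GABAergic means are lowest in VEGF 3 (-0.64 and -0.74), whereas the cortical excitatory mean is lowest in VEGF 1 and VEGF 2.

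Pan-neuronal genes were lower in 8 of 8, with a small median of -0.11, from Rbfox3 at -0.21 to Elavl4 at -0.031. Without VEGF 3 it was -0.061, with 7 of 8 lower. Among non-neuronal cells, endothelial genes were lower in 6 of 8 (median -0.033, Cldn5 -0.24 to Emcn 0.074) and choroid plexus genes in 5 of 5 (median -0.16, Clic6 -0.19 to Ttr -0.068). Microglial genes were higher in 5 of 8 (median 0.068, P2ry12 -0.28 to C1qb 0.20) and meningeal genes in 4 of 6 (median 0.024, Aldh1a2 -0.074 to Col1a1 0.15). Erythroid genes were higher in 7 of 7 (median 0.44, Epb42 0.12 to Alas2 0.83). No gene of these lists passed in limma. The direction of the endothelial and meningeal medians depended on single arrays. The endothelial median was 0.038 without VEGF 3, with 3 of 8 lower, and 0.0058 without control 2. The meningeal median was below 0 without control 3, VEGF 1, VEGF 2 or VEGF 4 (-0.049, -0.015, -0.074 and -0.022) and 0.16 without VEGF 3. The microglial median was 0.021 without control 4, that of choroid plexus -0.080 without control 2 and -0.093 without VEGF 4, and the erythroid one 0.24 without VEGF 1. For the erythroid list, VEGF 1 stood at 0.81, VEGF 3 at 0.34 and VEGF 4 at -0.025, the last within the control range of -0.19 to -0.019. VEGF 3 had the lowest mean of the 8 arrays for most of the lists. Among them were endothelial (-0.28), meningeal (-0.42), choroid plexus (-0.26), pan-neuronal (-0.19), migration (-0.20), ventral progenitor (-0.23) and CGE genes (-0.090). It was not the lowest for basal forebrain (-0.11), thalamic (0.16), cortical excitatory (-0.048), microglial (-0.024) and erythroid genes (0.34).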

How the data were processed

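Gene expression was measured in cortex of mouse embryos on 8 whole-transcript arrays, from 120 ng of total RNA per the labels' protocols. The authors deposited values that the range marks as log2, for 28853 probe sets with 0 missing values, and each probe set has a median within 5e-07 of 0. Affymetrix Expression Console and the build mm8 are named in the submitters' processing notes, while the sources used here do not give the background correction or summarisation. No filter on dim probe sets was possible, and the number of arrays limits the precision.

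Of the probe sets 21789 had 1 symbol in the platform annotation, 1621 several and 5443 none. Symbols were updated through Entrez identifiers to RefSeq GRCm38.p6 (21698 matched), and probe sets of a gene were averaged. Groups came from the sample titles. Differences and SEs are from limma 3.58.1 in R 4.3.3 (lmFit and eBayes, 3.12 prior and 6 residual degrees of freedom), two-sided, with Benjamini-Hochberg adjustment over 19938 genes at 0.05. The fit was tested on simulated data.

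The genes and gene lists were chosen with earlier results of these data known. Named were all 9 genes, the lowest and highest gene of each list, and genes without overlap in the other-MGE and migration lists. Also named were a set of pathway genes whatever their values and the 5 genes most like Lhx6. Kdr, Flt1, Nos1, Zic1, Dbx1, Dlx1, Dlx6 and 3 striatal genes were chosen after their values were seen. Tried instead were array centring, quantile normalization, a replicate block, Xist as a covariate, other probe set summaries, other priors and weights, the methods' t-test and leaving out arrays. Leaving out the 3 arrays with a female pattern was chosen after seeing the data.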

Additional observations from a re-analysis of the deposited data

Results flagged for a closer look

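The median of the 9 MGE genes in VEGF 3, at -0.59, stood far from the other VEGF arrays. Its gap to the nearest of them was 0.892 of the range of the group, above Dixon's critical value for 4 arrays. The other VEGF medians were -0.098, -0.067 and -0.038, and the control medians were 0.23, 0.29, 0.055 and 0.26. Chance marks about 1 in 20 groups, and 20 groups were looked at, of which 1 was marked.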

How the results depend on the processing

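All 9 genes stayed lower under each alternative that was run on them, and the median of their differences moved by less than 0.201. That yardstick is the SD within groups of the median of the 9 genes per array, not an SD of the difference. It includes the low VEGF 3, so it is a wide one. The other priors, array weights and the methods' t-test were run on the count over all genes alone. The median difference of the 9 genes was -0.53 with arrays centred on their medians, -0.49 with quantile normalization and -0.41 with Xist as a covariate. Leaving out each array in turn gave -0.60 to -0.35. The count of the 9 without overlap went from 3 to 6 over the fits without 1 array, and was 7 without the 3 arrays with a female pattern; fewer arrays overlap less often. Over all genes, leaving out 1 array gave 0 to 10 genes past the adjusted threshold, 10 without VEGF 4 and none of the 9 among them, and every other alternative gave 0. With the replicate number as a block 0 genes passed, 2649 had an unadjusted p under 0.05 and the differences were the same by construction. Same-numbered arrays had correlated deviations of 0.052, -0.13, 0.45 and 0.30, and 4 of 8 arrays correlated best with their own number, so the numbers were not taken to pair them. Since each of the 9 genes has 1 probe set, the probe set summaries could not differ. Signal over background is unknown for centred values.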
